A study of Rattus norvegicus with 14 samples.

Results

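The genes described here are the rat genes whose platform symbol is Zfp followed by a digit. The name alone chose them: 275 probe sets carried such a symbol as their only one, and the brightest probe set of each gene was kept, which gave 177 Zfp genes among 13184 genes measured. A further 6 Zfp symbols appeared only on probe sets shared with other symbols and were not used. Zinc finger proteins fold short loops around zinc ions. Most Zfp genes encode C2H2 proteins, strings of fingers that can each read a few bases of DNA. Many of these also carry a KRAB box, which recruits the corepressor TRIM28 and its partners to silence chromatin, often at transposable elements. The name also covers unrelated proteins: Zfp36, Zfp36l1 and Zfp36l2 have CCCH fingers, bind AU-rich elements in messenger RNA and bring the deadenylation machinery that shortens the poly(A) tail. In heart muscle cells the best known member is Zfp260, described in rat as an effector of alpha1-adrenergic signalling that works with GATA4.

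Cells were neonatal rat ventricular myocytes, heart muscle cells in primary culture from Sprague-Dawley pups aged 2 days, purified by a plating step that lets other cell types attach first and then kept without serum for 48 to 72 h. The groups were JQ1 with 100 µM phenylephrine (PE) at 6 h (n = 3) and at 48 h (n = 3), DMSO with the same PE dose at 6 h (n = 2) and at 48 h (n = 3), and DMSO at 90 min with no PE (n = 3). JQ1 displaces the BET bromodomain proteins from acetylated chromatin, DMSO is its vehicle, and PE is an agonist of alpha1-adrenergic receptors under which cultured myocytes enlarge. The treatment protocol puts JQ1 or DMSO 6 h ahead of PE and the series' design text puts PE ahead, so the order is not settled. No dose of JQ1 is given in the sources used here. The group without PE was taken at 90 min, so PE and time in culture cannot be told apart in either PE comparison. None of these groups had JQ1 without PE. An effect of JQ1 alone and one on the response to PE therefore cannot be told apart.

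The questions these groups pose for the Zfp genes are which of them PE moved at 6 h and 48 h, and which JQ1 moved in the presence of PE. Values are deposited log2 expression values, and a log2 fold change of 1 is a doubling. Differences were tested with limma over all 13184 genes, and a gene is called raised or lowered where its Benjamini-Hochberg adjusted p was under 0.05. Errors of fold changes are standard errors (SE). The labels do not state if replicate arrays were separate cultures. The p-values therefore reflect only the array-to-array spread, and that spread may be technical.

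All 13 measured cardiomyocyte markers were above the dim limit of 6.23, the 30th percentile of gene means, and their mean log2 level lay between 13.35 and 13.57 on the 14 arrays. With JQ1 at 48 h that mean was 13.35 to 13.37, against 13.55 to 13.57 with DMSO, and 5 of the 13 were raised and 7 lowered. At 6 h it was 13.46 to 13.48 with JQ1, against 13.55 to 13.57 with DMSO, and 3 were raised and 5 lowered. Markers of other cells moved with JQ1 too. The 10 fibroblast markers had a mean log2 level of 9.86 to 9.89 on JQ1 with PE arrays at 48 h, against 11.09 to 11.10 on DMSO with PE arrays, and all 10 were lowered. At 6 h the same mean was 10.79 to 10.80 with JQ1 against 11.33 to 11.36 with DMSO, and 8 were lowered. Smooth muscle and pericyte markers were lowered by JQ1 at both times in 6 of 6, while with PE 4 of 6 were raised at 6 h and 5 of 6 at 48 h. With PE at 48 h 6 of 10 fibroblast and 5 of 7 leukocyte markers were lowered. Of the 7 endothelial markers Pecam1, Vwf, Emcn and Tie1 were dim, and of the 7 leukocyte markers Ptprc, Csf1r and Tyrobp were. The part of these cells in the Zfp results was not tested. In cultures measured in bulk, fewer cells of a type and less RNA per cell cannot be told apart.

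Zfp genes were of middling brightness: their median mean level was 7.78, against 7.999 for all genes, and 132 of 177 lay in the middle quartiles of all genes. The brightest was Zfp36l1, at 12.28. A mean below the dim limit was found for 35 Zfp genes, or 19.8%, against 30% of all genes. By position 174 were placed on 21 chromosomes of the rat RefSeq assembly GRCr8, 48 of them on chromosome 1.

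Promoter sequences, from 250 bases before to 50 bases after the RefSeq start, were found in GRCr8 for 145 of the 177. The median GC content was 57.7%, against 60% for the promoters of other measured genes and 52.3% for all promoters in the table. Sp1-type boxes (GGGCGG, either strand) were present in 46.9% of Zfp promoters, against 58.3% of those of other measured genes and 34.9% of all. The ETS-type motif CCGGAAGT was present in 6.9%, against 7.11% and 4.01%. The CArG box, which serum response factor binds, was found in 1.38%, against 1.32% and 1.64%. Zfp532, Zfp703 and Zfp799, which had large JQ1 changes, were not among the 145. The promoters below belong to some of the named genes. They are those of the strongest JQ1-raised gene, a strongly lowered one and the gene with the largest PE rise at 48 h. They also include those of the pair tied by background to mRNA decay and to alpha1-adrenergic signalling. They are shown 5′ to 3′ on the gene's strand, and capitals mark the motifs just named, on either strand.
Zfp213, chr10:13103859-13104158, minus strand: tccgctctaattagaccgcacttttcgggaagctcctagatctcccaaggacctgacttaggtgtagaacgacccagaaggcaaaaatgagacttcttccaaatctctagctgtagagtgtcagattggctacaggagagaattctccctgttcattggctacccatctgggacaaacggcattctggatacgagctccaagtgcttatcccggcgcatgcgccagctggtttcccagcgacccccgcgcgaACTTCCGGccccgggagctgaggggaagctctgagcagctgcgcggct
Zfp57, chr20:1534869-1535168, minus strand: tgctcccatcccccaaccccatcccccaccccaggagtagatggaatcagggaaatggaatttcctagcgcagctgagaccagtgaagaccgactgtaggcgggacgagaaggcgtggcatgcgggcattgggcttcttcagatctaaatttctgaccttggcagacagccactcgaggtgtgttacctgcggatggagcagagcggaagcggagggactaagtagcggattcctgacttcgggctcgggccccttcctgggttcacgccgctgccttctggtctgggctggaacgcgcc
Zfp367, chr17:970646-970945, plus strand: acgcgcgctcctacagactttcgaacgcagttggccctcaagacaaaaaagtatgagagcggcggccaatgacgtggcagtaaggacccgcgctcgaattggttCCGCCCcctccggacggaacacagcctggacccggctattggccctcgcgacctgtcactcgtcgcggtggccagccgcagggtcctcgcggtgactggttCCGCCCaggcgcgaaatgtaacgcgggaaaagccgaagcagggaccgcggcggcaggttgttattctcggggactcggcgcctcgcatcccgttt
Zfp36, chr1:92799059-92799358, minus strand: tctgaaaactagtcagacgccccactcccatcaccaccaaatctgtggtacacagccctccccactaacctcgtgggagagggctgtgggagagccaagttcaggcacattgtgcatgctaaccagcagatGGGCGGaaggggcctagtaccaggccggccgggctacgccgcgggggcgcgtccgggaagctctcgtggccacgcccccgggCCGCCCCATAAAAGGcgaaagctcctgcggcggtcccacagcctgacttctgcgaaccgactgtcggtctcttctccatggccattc
Zfp260, chr1:94469611-94469910, plus strand: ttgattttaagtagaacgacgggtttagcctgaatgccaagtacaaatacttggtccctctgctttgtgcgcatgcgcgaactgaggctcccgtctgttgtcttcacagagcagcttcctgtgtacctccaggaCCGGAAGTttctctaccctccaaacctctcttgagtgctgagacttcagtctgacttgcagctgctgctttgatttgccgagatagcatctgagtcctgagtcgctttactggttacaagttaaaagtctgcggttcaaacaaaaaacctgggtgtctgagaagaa
The windows of Zfp213 and Zfp260 each held CCGGAAGT, that of Zfp367 held GGGCGG at 2 positions, and that of Zfp57 held none of these motifs. In the Zfp36 window 2 GGGCGG matches stood with a CArG box, and one of them shares a base with that box. The windows of Zfp654 and Zfp467, also among the largest JQ1 changes and not printed here, held none of these motifs. A match describes letters in this window and shows no binding.

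With PE at 6 h, 31 Zfp genes were raised and 32 lowered, or 17.5% and 18.1%, close to the 18.3% raised and 18.9% lowered among all genes. The changes were small: the median log2 fold change was -0.0089, against 0.013 for all other genes. At 1.5-fold or more, Zfp672 was raised and Zfp846 lowered, 1 gene each way, against 3.15% raised and 2.65% lowered among all genes. The 2 arrays at 6 h without JQ1 stood apart from each other, with median Zfp levels of 7.71 and 7.88, and without replicate 1 the lowered count was 21.

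The gene with the largest rise was Zfp672. It read 9.37 and 9.41 on the arrays with PE at 6 h, against 8.57, 8.53 and 8.62 without PE. Every PE array lay above every array without PE, and the rise was 0.82 ± 0.04 (log2 ± SE, limma adjusted p = 3.23e-08). Genes named for the largest changes between groups were picked among those whose arrays do not overlap. For them, here and below, a lack of overlap was a condition of choice and adds no support. Groups this small also lay apart without a call, as with PE at 6 h for Zfp133 and Zfp202 (limma adjusted p = 0.327 and 0.444). The share of all genes without overlap is not given here. Zfp462, a large C2H2 protein whose human counterpart is a developmental disorder gene, rose by 0.58 ± 0.09 (limma adjusted p = 3.18e-04). Zfp707 rose by 0.46 and Zfp367 by 0.41.

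The mRNA-decay genes rose together at 6 h. Zfp36, or tristetraprolin, read 7.97 and 7.93 with PE at 6 h, against 7.48, 7.40 and 7.45 without PE, with no overlap and a rise of 0.51 ± 0.07 (limma adjusted p = 1.22e-04). Zfp36l1 read 12.64 and 12.66 against 12.24, 12.18 and 12.29, a rise of 0.41 ± 0.04 (limma adjusted p = 1.53e-05). Zfp36l2 read 10.55 and 10.65 against 10.32, 10.33 and 10.44, a rise of 0.24 ± 0.05 (limma adjusted p = 1.68e-03). All 3 family members thus passed the test, and their groups did not overlap.

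Zfp260 rose at 6 h as well. It read 10.98 and 10.86 with PE, against 10.65, 10.67 and 10.68 without, and the difference was 0.25 ± 0.04 (limma adjusted p = 6.38e-04). Its dim second probe set did not pass the test (0.15 ± 0.14, limma adjusted p = 0.5), and the mean of both probe sets did not pass for PE at 6 h (limma adjusted p = 0.0929). That mean also missed the threshold in the Zfp260 comparisons given further on for PE at 48 h (0.0649), JQ1 at 6 h (0.0698) and the difference of JQ1 effects (0.168), but passed for PE at 48 h against 6 h (3.67e-03). Zfp598, an E3 ligase that marks collided ribosomes, rose by 0.41 ± 0.05, Zfp593, known from its yeast counterpart for a part in ribosome assembly, by 0.30 ± 0.06, and Zfp281, a GC-box-binding factor, by 0.26 ± 0.05.

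Lowered genes at 6 h were led by Zfp846, which read 7.47 and 7.70 with PE, against 8.31, 8.33 and 8.19 without. The groups were apart although its 2 PE arrays differed by more than the 3 others did, and the fall was -0.69 ± 0.08 (limma adjusted p = 1.55e-05). Zfp90, Zfp266, Zfp386, Zfp972 and Zfp426 fell by 0.49 to 0.52 on the log2 scale, with limma adjusted p from 1.85e-06 to 1.56e-03. Zfp972 was dim after PE, at 5.98 and 6.03. Zfp106, an RNA-binding protein needed in mouse for motor neurons and muscle, fell by 0.41 ± 0.05 and Zfp91, a ubiquitin ligase, by 0.29 ± 0.04. The mean of all Zfp106 probe sets did not pass (-0.15, limma adjusted p = 0.0977).

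**Figure D1:**
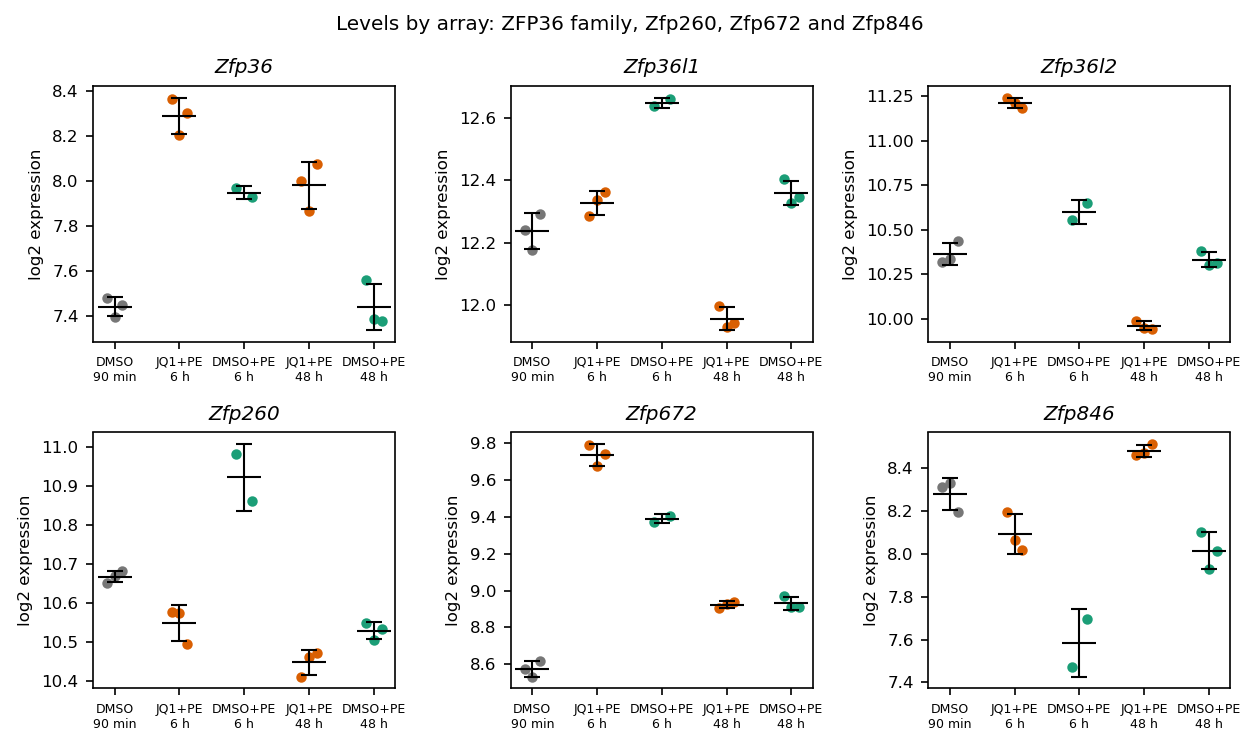
Log2 expression (vertical axis) on every array in the 5 groups (horizontal axis) for the ZFP36 family, Zfp260, Zfp672 and Zfp846. Points are arrays, bars the mean and SD, and the vertical scale differs between panels: Zfp36 lies between 7.93 and 7.97 with DMSO and PE at 6 h, above the 3 arrays at 90 min.

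With PE at 48 h the balance was downward. Raised genes numbered 19 and lowered ones 56, or 10.7% and 31.6% of the Zfp genes, against 21.4% raised and 22.6% lowered among all genes. The median log2 fold change was -0.073, against 0.0068 for all other genes. At least 1.5-fold was reached by 2 raised and 1 lowered Zfp gene, against 3.95% and 2.83% of all genes, so nearly all of the lowered Zfp genes fell by less than that.

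The shift was found at every level of brightness but the dimmest. In the third quartile 25 of 56 Zfp genes were lowered and 7 raised, with a median of -0.15, against 32.1% lowered and 27.5% raised and a median of -0.021 among other genes of that quartile. In the brightest quartile 10 of 18 were lowered and 3 raised, against 31.3% and 29.2% of other genes, and in the second quartile 19 of 76 were lowered and 7 raised, against 22% and 20.8%. In the dimmest quartile 2 of 27 Zfp genes went each way.

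**Figure D2:**
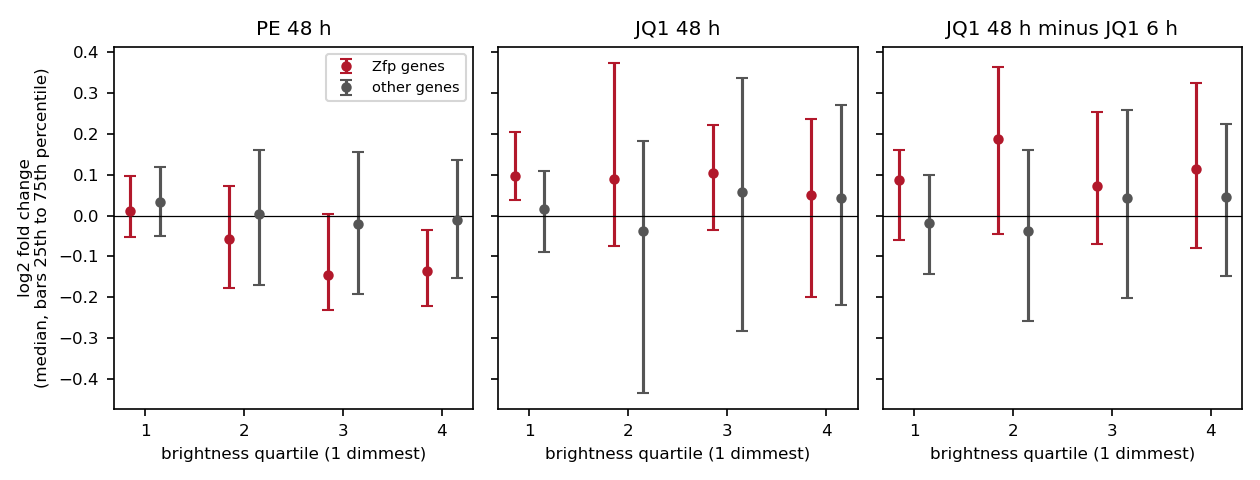
Median log2 fold change (points) with the 25th to 75th percentile (bars) of the Zfp genes and of other genes in each quartile of mean level, for PE at 48 h, JQ1 at 48 h and the difference of the JQ1 effects. With PE at 48 h the Zfp median of the third quartile is -0.15, against -0.021 for other genes.

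The large exception was Zfp367. It read 10.14, 10.12 and 10.06 with PE at 48 h, against 8.86, 8.96 and 8.62 without PE. All PE arrays were more than a unit above the others, and the rise was 1.29 ± 0.08 (limma adjusted p = 7.17e-08). Zfp462 read 8.67, 8.74 and 8.63 against 8.01, 7.96 and 7.99, without overlap, and rose by 0.69 ± 0.08 (limma adjusted p = 2.23e-05). Zfp426 and Zfp180 each rose by 0.53, Zfp707 by 0.44 and Zfp81 by 0.39.

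Among the lowered, Zfp266 read 10.002, 10.007 and 9.94 with PE at 48 h, against 10.59, 10.54 and 10.61 without. These groups were far apart for their spread, and the fall was -0.59 ± 0.04 (limma adjusted p = 1.28e-07). Zfp46 fell by 0.54, Zfp26 by 0.48, Zfp532 by 0.46 and Zfp90 by 0.44 on the log2 scale. The mean of all probe sets did not pass for Zfp532 (-0.12, limma adjusted p = 0.168) or Zfp90 (-0.215, limma adjusted p = 0.061). Zfp346, which encodes a protein that binds double-stranded RNA, gave opposite answers from its probe sets: the brightest fell by 0.55 (limma adjusted p = 1.53e-04) and the other, nearly as bright at 6.61, rose by 0.43 ± 0.06 (limma adjusted p = 1.62e-04). Zfp326, part of a complex that links transcription elongation to splicing, fell by 0.37 ± 0.04 and Zfp503, a corepressor related to Zfp703, by 0.40 ± 0.06. Zfp148, a GC-box-binding factor related to Zfp281, fell by 0.18 ± 0.03.

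For the ZFP36 family the levels at 48 h lay near those without PE. Zfp36 read 7.56, 7.39 and 7.38 with PE at 48 h, and its difference from the DMSO arrays at 90 min was -0.0008 ± 0.064 (limma adjusted p = 0.994). That of Zfp36l2 was -0.033 ± 0.043 (limma adjusted p = 0.581). Zfp36l1 remained higher by 0.12 ± 0.04 (limma adjusted p = 0.0261), a call lost when DMSO 90 min replicate 1 (0.0547) or replicate 2 (0.111) or PE 48 h replicate 1 (0.0997) was left out, and when only the compared groups were fitted (0.0703). Zfp260, raised at 6 h, was lower at 48 h, with 10.55, 10.50 and 10.53 against 10.65, 10.67 and 10.68, a fall of -0.14 ± 0.04 (limma adjusted p = 0.0127). Both PE comparisons use the same 3 DMSO arrays at 90 min.

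Set directly against each other, PE at 48 h and PE at 6 h gave 10 Zfp genes higher and 38 lower at the later time, or 5.65% and 21.5%, against 16.3% and 18.4% of all genes. At 1.5-fold or more, 2 were higher and 0 lower, against 2.7% and 1.87% of all genes. The counts depended on the 2 arrays at 6 h: without replicate 1 there were 6 higher, and without replicate 2 there were 21 lower. Zfp426 read 7.96, 7.84 and 7.94 at 48 h, against 6.74 and 7.05 at 6 h, and was higher by 1.02 ± 0.08 (limma adjusted p = 1.19e-06). Zfp367 was higher by 0.88 ± 0.09. Zfp81 was higher by 0.51 ± 0.11 (limma adjusted p = 3.03e-03), which became 0.33 with an adjusted p of 0.0502 without replicate 1 of PE at 6 h. Zfp36 was lower by -0.51 ± 0.07, Zfp667 by -0.52 ± 0.07, Zfp9 by -0.50 ± 0.09 and Zfp260 by -0.39 ± 0.04, all with limma adjusted p under the threshold.

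JQ1 at 6 h raised 51 Zfp genes and lowered 53, or 28.8% and 29.9%, against 25.5% raised and 28.8% lowered among all genes. Calls in either direction came to 58.8% of Zfp genes, against 54.3% of all genes. The median was -0.0077, against 0.0003 for all other genes. Changes of at least 1.5-fold were found for 8 raised and 16 lowered Zfp genes, 4.52% and 9.04%, against 5.32% and 9.83% of all genes. Array medians were lower with JQ1, and when arrays were centred on their medians the split was 59 raised and 37 lowered. Centring lifts the JQ1 fold change of every gene by the same amount, and the share of all genes under it is not given here.

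Zfp213 had the largest rise. It read 8.53, 8.53 and 8.56 with JQ1 at 6 h, against 7.02 and 7.17 with DMSO. The JQ1 arrays were tightly grouped far above the DMSO arrays, and the rise was 1.45 ± 0.09, or 2.73-fold (limma adjusted p = 3.05e-08). Its second probe set rose by 0.72 ± 0.07 (limma adjusted p = 3.34e-06), while the dimmest of its 5 did not pass (0.0081 ± 0.0995, limma adjusted p = 0.957).

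Zfp703, a corepressor of the NET family, read 8.38, 8.38 and 8.37 with JQ1 against 7.51 and 7.48 with DMSO. It rose by 0.88 ± 0.04 (limma adjusted p = 1.69e-09), and its relative Zfp503 rose by 0.50 ± 0.07 (limma adjusted p = 3.57e-05). Zfp706 read 11.22, 11.18 and 11.23 with JQ1 against 10.45 and 10.48 with DMSO. Both groups were narrow, and the rise was 0.75 ± 0.04 (limma adjusted p = 9.66e-09). Zfp654 rose by 0.75 ± 0.09, Zfp707 by 0.71 ± 0.08 and Zfp131 by 0.65 ± 0.11. Zfp593 rose by 0.61 ± 0.06, and Zfp207, which binds the spindle checkpoint protein BUB3, by 0.53 ± 0.06.

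Zfp532 fell most. Its human counterpart ZNF532 has been found fused to NUTM1 in NUT carcinoma, a tumour driven by BET protein fusions. It read 6.87, 6.72 and 6.85 with JQ1 at 6 h, against 8.53 and 8.70 with DMSO, a fall of -1.80 ± 0.08, or 3.49-fold (limma adjusted p = 1.66e-09). Its other probe sets, dim at 4.66 and 3.87, did not pass the test.

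Zfp467, known in mouse for promoting fat cell differentiation from marrow stroma, read 6.28, 6.26 and 6.10 with JQ1, against 7.73 and 7.93 with DMSO. It fell by -1.62 ± 0.09 (limma adjusted p = 8.66e-09) to about the dim limit. Zfp57, a KRAB protein that guards imprinted methylation in mouse, read 6.94, 6.88 and 6.79 with JQ1, against 8.29 and 8.46 with DMSO. These groups were more than a unit apart, and the fall was -1.51 ± 0.06 (limma adjusted p = 5.87e-10). Zfp9 fell by -1.06 ± 0.09, Zfp219, a partner of SOX9 in mouse cartilage, by -0.98 ± 0.06 and Zfp46 by -0.96 ± 0.04. Zfp91 fell by -0.53 ± 0.04 and Zfp384, a factor linked to matrix metalloproteinase genes in rat, by -0.51 ± 0.05. Another Zfp91 probe set, dim at 4.30, rose by 0.27 ± 0.08 (limma adjusted p = 0.0163). Zfp326 was lower by -0.12 ± 0.05 at limma adjusted p = 0.0494, a call that ended in 11 of the 14 fits without an array (adjusted p 0.0533 to 0.36) and held without DMSO with PE 6 h replicate 1, JQ1 6 h replicate 2 or DMSO with PE 48 h replicate 1. The fall of Zfp462, -0.26 ± 0.09, ended without DMSO with PE 6 h replicate 1 (adjusted p = 0.181) or replicate 2 (0.05), or JQ1 6 h replicate 1 (0.105) or replicate 2 (0.0594), and with arrays centred on their medians (0.14).

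**Figure D3:**
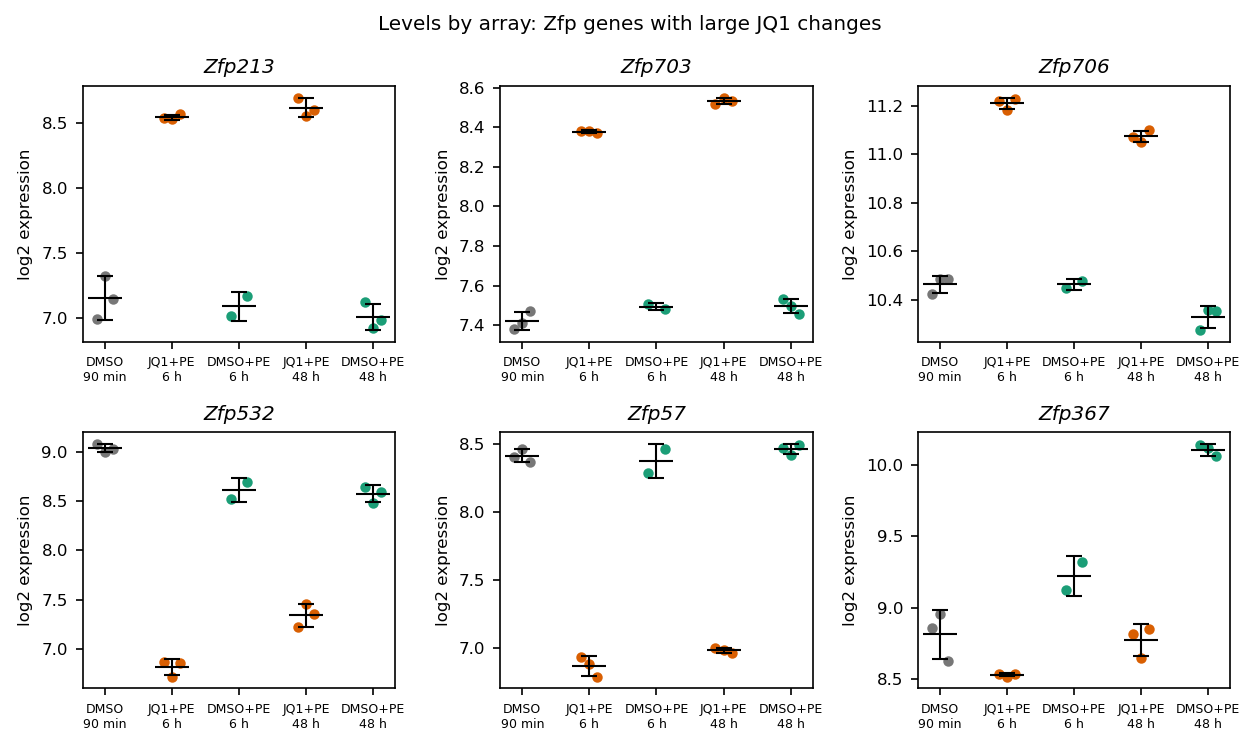
Log2 expression (vertical axis) on every array in the 5 groups (horizontal axis) for 3 genes raised by JQ1 (Zfp213, Zfp703, Zfp706) and 3 lowered by it (Zfp532, Zfp57, Zfp367). Points are arrays and bars the mean and SD: the 3 arrays of JQ1 with PE at 48 h read 8.55 to 8.69 for Zfp213, against 6.92 to 7.12 with DMSO and PE.

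At 48 h JQ1 raised 62 Zfp genes and lowered 35, or 35% and 19.8%, against 30% raised and 29.6% lowered among all genes. Calls in either direction came to 54.8%, against 59.6% of all genes. The median was 0.088, against 0.016 for all other genes. At 1.5-fold or more 12 were raised and 10 lowered, 6.78% and 5.65%, against 6.43% and 12.1% of all genes. With arrays centred on their medians the split was 93 raised and 27 lowered and the median 0.18. That shift applies to every gene alike, and without the share of all genes under centring the split is no sign of a stronger rise of Zfp genes. The pooled SD of the arrays' median Zfp levels within groups was 0.05.

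The same counts were taken beside genes of like brightness. In the dimmest quartile 5 of 27 Zfp genes were raised and 2 lowered with a median of 0.10, against 9.02% raised, 12.9% lowered and a median of 0.016 among other genes. In the second quartile 29 of 76 Zfp genes were raised and 15 lowered with a median of 0.09, against 24.5% raised, 37% lowered and a median of -0.037 among other genes. In the third quartile 22 of 56 were raised and 12 lowered with a median of 0.10, against 42.9% and 35.2% and a median of 0.06. In the brightest quartile 6 of 18 moved each way, against 43.4% raised and 34% lowered. These are counts beside counts, and the differences between them were not tested. The comparison of JQ1 at 48 h shares its DMSO arrays with that of PE at 48 h, in which more Zfp genes were lowered than raised.

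**Figure D4:**
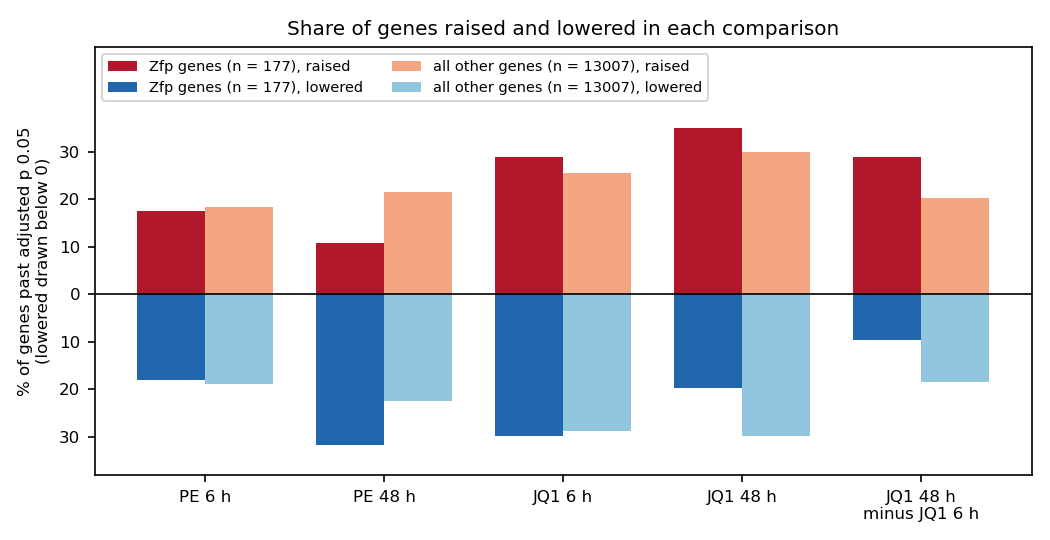
Percent of genes past limma adjusted p 0.05, raised above the line and lowered below it, for the 177 Zfp genes (dark) and the 13007 other genes (light) in 5 comparisons. With JQ1 at 48 h 35% of Zfp genes were raised and 19.8% lowered, and with PE at 48 h 10.7% were raised and 31.6% lowered.

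Zfp213 again rose most at 48 h, with 8.69, 8.55 and 8.60 under JQ1, against 7.12, 6.92 and 6.99 under DMSO. The rise was 1.60 ± 0.08, or 3.03-fold (limma adjusted p = 2.08e-09), and 3 of its 4 other probe sets rose too. Zfp799 read 7.93, 7.92 and 7.99 with JQ1 against 6.86, 6.63 and 6.87 with DMSO, a rise of 1.16 ± 0.09 (limma adjusted p = 1.62e-07). Zfp703 rose by 1.04 ± 0.03 (limma adjusted p = 5.62e-11). In all 3 genes the JQ1 arrays were well above every DMSO array.

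Zfp292, whose human counterpart is a neurodevelopmental disorder gene, read 8.66, 8.67 and 8.60 with JQ1 at 48 h against 7.96, 7.65 and 7.74 with DMSO. It rose by 0.86 ± 0.10 (limma adjusted p = 4.97e-06), and all 5 of its other probe sets rose as well, by 0.26 to 0.85. Zfp667, named Mipu1 in rat for its rise in heart muscle after ischaemic preconditioning, read 7.48, 7.43 and 7.53 with JQ1 against 6.57, 6.65 and 6.68 with DMSO. Without overlap between groups it rose by 0.84 ± 0.06 (limma adjusted p = 1.29e-07), and Zfp523 rose by 0.77 ± 0.06. Zfp503 rose by 0.52 ± 0.06 and Zfp106 by 0.38 ± 0.04.

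Zfp57 fell most at 48 h. It read 7.003, 6.989 and 6.965 with JQ1 against 8.47, 8.42 and 8.50 with DMSO, a fall of -1.48 ± 0.05, or 2.79-fold (limma adjusted p = 8.75e-11). The groups were far apart for their spread. With PE the gene did not pass the test, at -0.04 ± 0.06 at 6 h (limma adjusted p = 0.663) and 0.05 ± 0.05 at 48 h (limma adjusted p = 0.488).

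Zfp367 read 8.82, 8.64 and 8.85 with JQ1 at 48 h, against 10.14, 10.12 and 10.06 with DMSO. The fall was -1.33 ± 0.08 (limma adjusted p = 1.54e-08), and the JQ1 arrays lay within the range of the arrays without PE. Zfp462 read 7.90, 7.56 and 7.90 with JQ1 against 8.67, 8.74 and 8.63 with DMSO and fell by -0.89 ± 0.08 (limma adjusted p = 8.44e-07). Zfp367 and Zfp462 were the genes with the largest rises under PE at 48 h, and the same DMSO arrays enter both comparisons. Zfp532 fell by -1.23 ± 0.07, Zfp467 by -1.04 ± 0.08 and Zfp455 by -0.89 ± 0.07. Zfp384 fell by -0.34 ± 0.04, Zfp91 by -0.20 ± 0.04 and Zfp281 by -0.19 ± 0.04, a call that ended with arrays centred on their medians (-0.10, limma adjusted p = 0.0754).

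The JQ1 comparisons at 6 h and 48 h share no arrays. Raised at both times were 35 Zfp genes, 68.6% of those raised at 6 h and 56.5% of those raised at 48 h, against 68.8% and 58.5% among other genes. Lowered at both times were 26, which was 49.1% of those lowered at 6 h and 74.3% of those lowered at 48 h, against 69.6% and 67.4% among other genes. Neither time gave a call for 44, or 24.9%, against 28.5% of other genes.

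The JQ1 effect at 48 h minus that at 6 h, tested in the same fit, was positive past the threshold for 51 Zfp genes and negative for 17, or 28.8% and 9.6%, against 20.4% and 18.3% of all genes. Both directions together made 38.4%, against 38.8% of all genes. The median difference was 0.12, against 0.0046 for other genes. At 1.5-fold or more 6 were positive and 4 negative, against 4.24% and 6.77% of all genes. Of the 51, 15 were lowered at 6 h and not called at 48 h, 15 were not called at 6 h and raised at 48 h, and 9 were lowered at both times. A further 7 were raised at both times and 5 were lowered at 6 h and raised at 48 h. In the second quartile of brightness the split was 28 positive and 4 negative of 76, against 14.5% and 20.7% of other genes. In the third quartile it was 14 and 9 of 56, against 30.6% and 24.2% of other genes, and in the brightest 8 and 4 of 18, against 33.3% and 22.9%. In the dimmest 1 of 27 was positive and 0 negative.

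The 5 genes lowered at 6 h and raised at 48 h were Zfp266, Zfp407, Zfp414, Zfp61 and Zfp972. They made 2.82% of the Zfp genes, the same as the 2.82% among other genes. Zfp36l2 and Zfp639 were raised at 6 h and lowered at 48 h, or 1.13%, against 2.03% of other genes. Zfp407, Zfp414 and Zfp61 are named here after their values were seen. Zfp972 had the largest difference, 1.29 ± 0.09 (limma adjusted p = 3.45e-07), or 0.86 with the mean of its probe sets. It read 5.14, 5.14 and 5.19 with JQ1 at 6 h against 5.98 and 6.03 with DMSO, and 6.51, 6.60 and 6.46 with JQ1 at 48 h against 6.07, 6.09 and 6.08 with DMSO. The JQ1 arrays were below the DMSO arrays at 6 h and above them at 48 h, although of these arrays all but those of JQ1 at 48 h were under the dim limit.

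Zfp266 read 9.82, 9.72 and 9.71 with JQ1 at 6 h against 10.02 and 10.10 with DMSO, and 10.33, 10.33 and 10.32 with JQ1 at 48 h against 10.002, 10.007 and 9.94 with DMSO. Its groups did not overlap at either time, and the effects differed by 0.65 ± 0.06 (limma adjusted p = 3.1e-06). Zfp46 and Zfp219 were lowered at both times but less at 48 h: their log2 fold changes were -0.20 and -0.27 at 48 h, against -0.96 and -0.98 at 6 h. Zfp580 also had a positive difference, 0.67 ± 0.11, and Zfp639 a negative one, -0.61 ± 0.08.

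**Figure D5:**
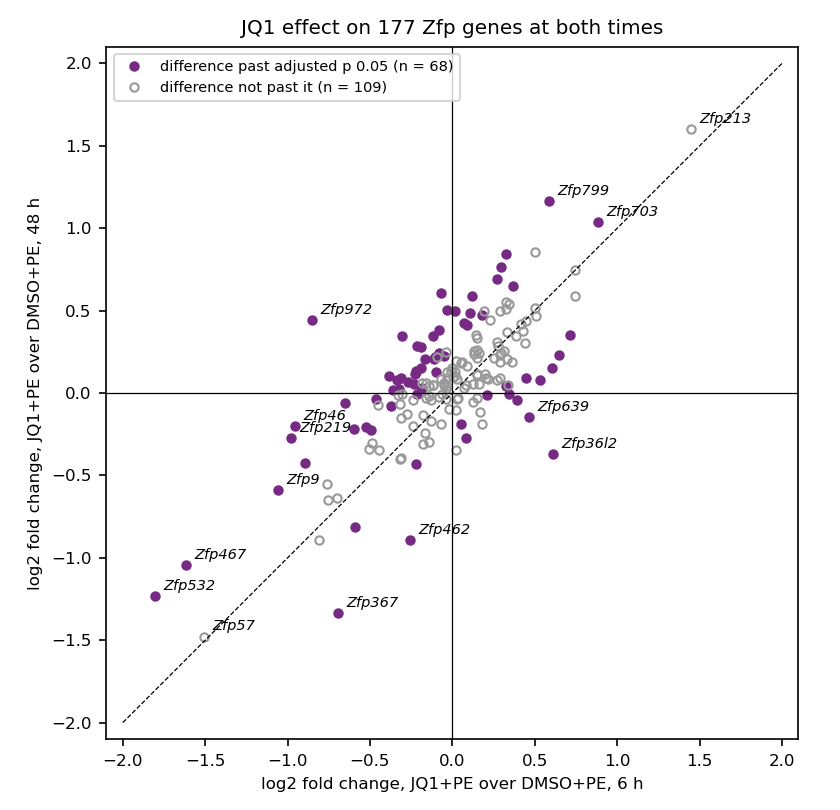
Log2 fold change of JQ1 with PE over DMSO with PE at 6 h (horizontal) and at 48 h (vertical) for the 177 Zfp genes, with filled points where the difference between the times passed limma adjusted p 0.05 (n = 68) and open points elsewhere (n = 109). The dashed line marks equal effects: Zfp972 lies in the upper left, at -0.85 at 6 h and 0.44 at 48 h, and Zfp36l2 in the lower right, at 0.61 and -0.37.

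The 3 ZFP36 genes parted under JQ1. Zfp36 read 8.36, 8.20 and 8.30 with JQ1 at 6 h against 7.97 and 7.93 with DMSO, and rose by 0.34 ± 0.07 (limma adjusted p = 1.26e-03). At 48 h it read 8.002, 7.868 and 8.075 against 7.56, 7.39 and 7.38, a rise of 0.54 ± 0.06 (limma adjusted p = 8.28e-06). It was thus higher with JQ1 at both times, without overlap.

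Zfp36l1 read 12.29, 12.34 and 12.36 with JQ1 at 6 h against 12.64 and 12.66 with DMSO, a fall of -0.32 ± 0.04 (limma adjusted p = 5.07e-05). At 48 h it read 11.998, 11.928 and 11.943 against 12.40, 12.33 and 12.35, a fall of -0.40 ± 0.04 (limma adjusted p = 1.67e-06). Zfp36l1 was lower with JQ1 at both times, again without overlap.

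Zfp36l2 changed direction between the times. It read 11.24, 11.21 and 11.18 with JQ1 at 6 h against 10.55 and 10.65 with DMSO, a rise of 0.61 ± 0.05 (limma adjusted p = 2.83e-07). At 48 h it read 9.99, 9.95 and 9.94 against 10.38, 10.30 and 10.31, a fall of -0.37 ± 0.04 (limma adjusted p = 6.19e-06). The effects differed by -0.98 ± 0.06 (limma adjusted p = 1.71e-07). Its second probe set, dim at 4.91, did not pass the test for JQ1 at either time, and the mean of both gave a difference of -0.55 (limma adjusted p = 1.26e-05).

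The raised Zfp260 level with PE at 6 h was not seen with JQ1 and PE, and no group had JQ1 without PE. Zfp260 read 10.58, 10.57 and 10.49 with JQ1 and PE at 6 h against 10.98 and 10.86 with DMSO and PE, a fall of -0.37 ± 0.04 (limma adjusted p = 1.23e-05). At 48 h it read 10.41, 10.46 and 10.47 with JQ1 against 10.55, 10.50 and 10.53 with DMSO, and the difference of -0.08 ± 0.04 did not pass (limma adjusted p = 0.0992). The 2 JQ1 effects differed by 0.29 ± 0.06 (limma adjusted p = 1.81e-03). The DMSO with PE arrays at 6 h enter both the PE and the JQ1 comparison at that time.

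Probe sets of a gene did not always speak with one voice. For JQ1 at 48 h, 61 other probe sets belonged to called Zfp genes, and of these 32 passed in the same direction, 18 agreed in sign but did not pass, 10 had the opposite sign and did not pass, and 1 passed with the opposite sign. The last belonged to Zfp593, whose brightest probe set rose by 0.15 ± 0.06 (limma adjusted p = 0.0378) and whose other fell by -0.27 ± 0.04 (limma adjusted p = 1.20e-04). The rise was lost without DMSO with PE 48 h replicate 1 (adjusted p = 0.0749) or replicate 2 (0.145), or JQ1 48 h replicate 1 (0.123) or replicate 2 (0.0894). At JQ1 6 h the counts were 26, 30, 10 and 2 of 68.

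Zfp423, which commits cells to the fat lineage in mouse, was the widest disagreement. Its brightest probe set, with a mean of 7.21, did not pass with JQ1 at 6 h (0.16 ± 0.09, limma adjusted p = 0.136) or at 48 h (0.06 ± 0.08, limma adjusted p = 0.55). The next, at 6.91, fell by -1.82 ± 0.08 at 6 h (limma adjusted p = 3.64e-09) and by -1.80 ± 0.08 at 48 h (limma adjusted p = 5.70e-10). Its remaining 2 were dim and did not pass. Many Zfp genes have close copies, and how far probes tell copies such as Zfp729 and Zfp729b apart was not tested.

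Clusters of the measured Zfp genes along the chromosomes were short. Counting members no more than 5 protein-coding genes apart, 8 clusters of 3 or more held 33 Zfp genes. Zfp genes not measured here and zinc finger genes under other names did not count as members. The clusters therefore depend on the name rule and the array, and those in the genome may be longer. On chromosome 7 Zfp799, Zfp870 and Zfp763 were all raised by JQ1 at both times: at 48 h by 1.16, 0.19 and 0.69 and at 6 h by 0.58, 0.36 and 0.27. On chromosome 1 Zfp972, Zfp729b and Zfp729 were all lowered by JQ1 at 6 h, with a median of -0.60, and at 48 h 1 was raised and 1 lowered. A cluster of 5 on that chromosome, with Zfp180 and Zfp94, had 4 lowered and 0 raised by JQ1 at 6 h, and 1 each way at 48 h. On chromosome 4 a cluster of 7 had 4 raised and 1 lowered, Zfp467, at each time. On chromosome 8 Zfp426, Zfp266 and Zfp846 were lowered with PE at 6 h and Zfp26 was not. At 48 h 3 of these 4 were lowered and Zfp426 raised. Not every cluster is described in full, and those left out, all on chromosome 1, had no call with PE at 6 h. They had calls elsewhere. The one with Zfp580 had 2 raised and 2 lowered by JQ1 at 48 h, 0 and 2 by JQ1 at 6 h, and 0 and 2 with PE at 48 h. For the one with Zfp667 these counts were 1 and 0, 1 and 1, and 1 and 2. For the last they were 1 and 0, 1 and 0, and 0 and 1. Of the 33 clustered Zfp genes, 3 were raised and 5 lowered with PE at 6 h, against 18.3% and 18.9% of all genes. At 48 h of PE 4 were raised and 11 lowered, against 21.4% and 22.6%. Over all clusters JQ1 at 48 h raised 15 of 33 and lowered 6. It raised 8 and lowered 2 of the 30 Zfp genes in pairs, against 30% and 29.6% of all genes. Of the 111 with no other measured Zfp gene within that distance it raised 37 and lowered 27. At 6 h it raised 10 and lowered 13 of the 33, against 25.5% and 28.8% of all genes. Zfp870, Zfp763, Zfp729b, Zfp729 and Zfp94 are named here after their values were seen.

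Partners of the KRAB proteins were measured as a list of 20 genes. JQ1 at 6 h raised 8 and lowered 6, or 40% and 30%, with a median of 0.14, against 25.5% and 28.8% of all genes. At 48 h it raised 6 and lowered 3, or 30% and 15%, with a median of 0.05, against 30% and 29.6% of all genes. Trim28, the corepressor that KRAB boxes bind, rose by 0.43 ± 0.05 at 6 h (limma adjusted p = 8.22e-06) and by 0.25 ± 0.04 at 48 h (limma adjusted p = 2.69e-04). Morc3, a chromatin ATPase, rose by 0.61 ± 0.05 at 6 h and 0.63 ± 0.04 at 48 h, and Cbx5, which encodes the heterochromatin protein HP1 alpha, rose by 0.81 ± 0.06 at 6 h. Ehmt1, a histone methyltransferase, rose at 48 h by 0.36 ± 0.07. Uhrf1, which brings DNA methylation to replicating DNA, fell by -0.60 ± 0.07 at 6 h and -1.45 ± 0.06 at 48 h.

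Of 24 partners and regulators of the ZFP36 proteins, JQ1 raised 11 and lowered 6 at 6 h, or 45.8% and 25%, with a median of 0.10, against 25.5% and 28.8% of all genes. At 48 h it raised 10 and lowered 4, or 41.7% and 16.7%, with a median of 0.12, against 30% and 29.6% of all genes. Cnot4, a ubiquitin ligase of the CCR4-NOT group, rose by 0.57 ± 0.04 at 6 h and 0.49 ± 0.04 at 48 h. Gigyf2, a translational repressor, rose by 0.83 ± 0.08 and Mapk14, the kinase p38 alpha, by 0.39 ± 0.04 at 6 h, and Hnrnpd, an AU-rich element binding protein, fell by -0.62 ± 0.06. At 48 h the deadenylase subunits Cnot10 and Cnot11 rose by 0.48 ± 0.04 and 0.51 ± 0.05, and Eif4e2, a cap-binding translational repressor, fell by -0.32 ± 0.03.

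The list of 30 mRNAs known elsewhere as ZFP36 targets moved widely. With PE 17 were raised and 1 lowered at 6 h, or 56.7% and 3.33%, against 18.3% and 18.9% of all genes, and 15 were raised and 5 lowered at 48 h, or 50% and 16.7%, against 21.4% and 22.6%. With JQ1 at 6 h 7 were raised and 11 lowered, or 23.3% and 36.7%, against 25.5% and 28.8% of all genes. With JQ1 at 48 h 4 were raised and 18 lowered, or 13.3% and 60%, against 30% and 29.6%, and the median was -0.41, against 0.02 for genes outside the Zfp set. Ccl2, a chemokine, fell by -0.77 ± 0.04 at 6 h and -2.09 ± 0.04 at 48 h, and Ccl7, another chemokine, by -1.25 ± 0.08 at 6 h and -2.87 ± 0.07 at 48 h. Ccnd1, the cyclin D1 gene, fell by -1.51 ± 0.07 at 6 h and -2.67 ± 0.06 at 48 h. Hbegf, a growth factor, rose at 6 h by 0.82 ± 0.05 and fell at 48 h by -0.71 ± 0.04, and Pim3, a kinase, rose by 0.41 ± 0.05 at 6 h and 0.79 ± 0.04 at 48 h. Fibroblast markers fell in the same comparison, and their part in these values was not tested.

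Zinc finger genes under other names were counted in the same comparisons, and differences between the families were not tested. With JQ1 at 48 h 30% of all genes were raised and 29.6% lowered. Of 16 Zc3h and Zc2hc genes 9 were raised and 1 lowered, with a median of 0.18, and of 10 Zscan and Zkscan genes 6 were raised and 1 lowered, with a median of 0.19. Of 28 Zbtb genes 8 were raised and 6 lowered, with a median of -0.02, and of 14 Klf genes 4 were raised and 5 lowered, with a median of -0.04. Of 6 genes still named Znf 3 were raised and 1 lowered. With PE at 48 h 8 of 14 Klf genes, 7 of 28 Zbtb genes, 6 of 16 Zc3h and Zc2hc genes, 0 of 10 Zscan and Zkscan genes and 1 of 6 Znf genes were lowered, against 56 of 177 Zfp genes and 22.6% of all genes.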

How the data were processed

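Per the labels' protocols, biotin-labelled total RNA was read on Affymetrix arrays for rat. The authors deposited 1 log2 expression value per probe set and array. That the authors normalized them between arrays is inferred from the similar distributions. Array medians ran from 7.28 to 7.43, and every JQ1 array (at most 7.32) lay below every DMSO array (at least 7.36). The method, and any filter, is not given in the sources used here. Limma is named in the submitters' processing notes, with no role stated.

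Of 20223 probe sets, 18510 had 1 symbol in the platform's probe table, 305 several, 1402 none, and 6 were control probe sets that carried a symbol. The brightest single-symbol probe set of each gene was kept (13184 genes). Of the 177 Zfp genes, 174 matched the RefSeq gene table of GRCr8 by gene ID. Zfp622 was not analysed here, and protein sequences, and so counts of fingers, were not used here.

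A mean per group was fitted to all 14 arrays with limma 3.58.1 (lmFit, contrasts.fit, eBayes) under R 4.3.3, leaving 9 residual degrees of freedom. Two-sided p-values were adjusted by Benjamini-Hochberg over 13184 genes. The number of arrays limits the precision. The fit was also run on simulated data with few changed genes and independent noise. That setting differs from these data, so the run does not speak to the calls made here. Named genes are the 6 raised and 6 lowered Zfp genes with the largest change whose arrays do not overlap (3 each for 48 h against 6 h of PE, 4 each for the difference of JQ1 effects without that condition), a panel of 19 measured genes, and from each list up to 3 genes of smallest adjusted p in the more frequent direction of JQ1 and 1 of the opposite. The Zfp genes, lists and tests were chosen with earlier results of these data known. Alternatives were centring arrays on their medians, repeated quantile normalization, the mean of all probe sets, leaving out dim genes, a trended robust prior, fitting only the compared groups, a 1.5-fold limit, the replicate number as a block, and leaving out each array.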

Additional observations from a re-analysis of the deposited data

Results flagged for a closer look

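The JQ1 effect at 48 h differed from that at 6 h, by the interaction term of the limma fit (adjusted p under 0.05 over all genes), for 28 of the 47 named Zfp genes, against 38.8% of all genes. The 47 include 8 that were picked for the size of this same difference. Others were picked for the largest JQ1 changes at 6 h or 48 h, from which the difference is formed. The count among the 47 is therefore no measure of how common a difference is. Among all 177 Zfp genes the share was 38.4%. Values are log2 effects at 48 h minus 6 h. Positive differences were found for Zfp972 (1.29), Zfp46 (0.76), Zfp219 (0.71), Zfp580 (0.67) and Zfp266 (0.65), of which Zfp972 and Zfp266 were lowered at 6 h and raised at 48 h. They were also found for Zfp799 (0.58), Zfp467 (0.57), Zfp532 (0.57), Zfp667 (0.52), Zfp9 (0.47), Zfp523 (0.47) and Zfp106 (0.46). Smaller positive differences belonged to Zfp26 (0.34), Zfp91 (0.32), Zfp260 (0.29) and Zfp703 (0.15). That of Zfp703 (adjusted p = 0.032) was lost in 9 of the 14 fits that left out an array, and also with centred arrays (0.0551), a trended robust prior (0.15) and the replicate block (0.0603). With the mean of all probe sets the differences of Zfp106 (0.060, adjusted p = 0.641) and Zfp260 (0.22, adjusted p = 0.168) did not pass in limma, and those of Zfp972 (0.86) and Zfp91 (0.20) passed at a smaller size. The second probe set of Zfp523 passed in the opposite direction (-0.29, limma adjusted p = 0.0427).

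Negative differences were found for Zfp36l2 (-0.98), Zfp367 (-0.64), Zfp462 (-0.64) and Zfp639 (-0.61), of which Zfp36l2 and Zfp639 were raised at 6 h and lowered at 48 h. They were also found for Zfp593 (-0.45), Zfp207 (-0.45), Zfp81 (-0.44), Zfp131 (-0.42), Zfp707 (-0.36) and Zfp672 (-0.35), and for Zfp281 (-0.24) and Zfp180 (-0.21). Without DMSO with PE 6 h replicate 2 that of Zfp281 was -0.18 with an adjusted p of 0.0628. With the mean of all probe sets the difference of Zfp207 did not pass (-0.22, limma adjusted p = 0.117), and those of Zfp36l2 (-0.55) and Zfp593 (-0.24) passed at a smaller size. All 28 rest on just 2 arrays for DMSO and PE at the earlier time.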

How the results depend on the processing

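With the arrays centred on their medians, the median Zfp log2 fold change for JQ1 was 0.0772 at 6 h and 0.18 at 48 h, and 15 of the 20 KRAB partner genes were called at 48 h, against 9 as deposited. Centring shifts the JQ1 effect of every gene alike, and shares of all genes with it are not given here. A limit of 1.5-fold, with or without the test, left 1 raised and 1 lowered gene for PE at 6 h, 2 and 1 for PE at 48 h, 8 and 16 for JQ1 at 6 h, 12 and 10 for JQ1 at 48 h, 2 and 0 for PE at 48 h against 6 h, and 6 and 4 for the difference of JQ1 effects; at the adjusted p alone limma called 10 and 38 for PE at 48 h against 6 h. The mean of all probe sets turned 4 values round: Zfp106 with JQ1 at 6 h (0.42, adjusted p = 9.24e-05), Zfp423 with JQ1 at 6 h (-0.41, 5.57e-05) and 48 h (-0.43, 9.51e-06) and Zfp593 with JQ1 at 48 h (-0.0036, 0.954); by construction it mixes in the dimmer probe sets. Leaving out each array gave 23 to 33 raised and 21 to 34 lowered for PE at 6 h, 15 to 20 and 49 to 59 for PE at 48 h, 40 to 52 and 38 to 54 for JQ1 at 6 h, 57 to 66 and 31 to 35 for JQ1 at 48 h, 6 to 15 and 21 to 39 for PE at 48 h against 6 h, and 39 to 56 and 12 to 18 for the difference of JQ1 effects. No pairing of arrays by replicate number was seen: deviations of 26 same-numbered pairs correlated at -0.27 to 0.18, with 3 over 0.1. The 52 pairs with unlike numbers ran from -0.21 to 0.27, with 11 over 0.1. Deviations from the mean of a small group are tied to each other, so these pairs are not independent. With the replicate number as a block, 61 were raised and 33 lowered for JQ1 at 48 h, and no count of calls moved by over 1.5 times, while 5 values of named genes lost their call. The mean of all probe sets ended 15 such calls, fitting only the compared groups 8, centring 5 and a trended robust prior 1. Some counts of calls moved by more than 1.5 times with centring, the 1.5-fold limit or leaving out an array of DMSO with PE at 6 h. The other settings kept every count within 1.5 times. With arrays, signal near background limits the dim genes, and 35 Zfp genes were dim.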
